A study of Mus musculus with 6 samples.

Results

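The cytosolic ribosomal protein genes were taken as the protein-coding genes of the count table whose symbol is Rps or Rpl with a number (with or without a closing a or x), Rplp with 0, 1 or 2, or Rpsa. This rule, which uses names and no measured value, found 76 of the 52550 genes listed, 30 of the small ribosomal subunit and 46 of the large one, including the 3 stalk genes Rplp0, Rplp1 and Rplp2. The splicing table lists 126 events in 55 of these genes, of 40961 events in 10911 genes. Cytosolic ribosomal proteins bind ribosomal RNA to form the small subunit, which reads the mRNA, and the large subunit, which joins the amino acids. Their mRNAs are short, abundant and carry a run of pyrimidines at the 5′ end, through which growth signals set how much of them is translated. Neurons use ribosomes in dendrites as well as in the cell body, where locally made proteins take part in synaptic plasticity.

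Hippocampal mRNA of male wild-type C57BL/6 J mice was compared between 3 control libraries and 3 libraries of the group L-DL KD. At 8 weeks of age both CA1 areas had been injected with an adeno-associated virus, with control shRNA in one group and shRNA against the RNA-binding protein hnRNP DL (L-DL) in the other. The vector held tandem shRNAs under H1 promoters and the green reporter zsGreen under a CamkIIα promoter. The RNA is described as coming from hippocampal tissue, with no statement that CA1 was taken alone. The control virus was given at a higher titre than the L-DL virus. The time from injection to tissue collection is not given in the sources used here, and the sample labels describe the treated mice as knockouts in 1 field.

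Each library held 16052529 to 17913064 gene counts. Hnrnpdl, the targeted gene, was at 176, 183 and 170.5 CPM in the controls and at 217, 150.0 and 173 CPM in the treated libraries, a log2 fold change of 0.03 (SE 0.12, adjusted p = 0.898, edgeR quasi-likelihood test). CPM are counts relative to the library size after scaling by edgeR's TMM factors, and for Hnrnpdl they cover all isoforms. Because the count of the targeted gene was not lower, the wording used here is libraries labelled L-DL KD. The paper reports a knockdown of the protein L-DL, the long isoform, in injected hippocampus by immunoblotting. Gene counts over all isoforms do not measure that protein. All p-values for genes below are from edgeR's quasi-likelihood test across 17621 genes with Benjamini-Hochberg adjustment, and n is 3 libraries for each group throughout.

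Most ribosomal protein genes were higher in the libraries labelled L-DL KD. Of the 76 genes, all of which passed the count filter, 52 were higher and 0 lower at an adjusted p under 0.05. Over all genes tested 15.6% were called higher and 15% lower, so that the share of ribosomal protein genes called higher, 68.4%, lay above that background. The median log2 fold change of the 76 genes was 0.34, or 1.27-fold, against 0.01 over all genes. The estimate was above 0 for 72 genes and below 0 for 4. For 64 genes (84.2%) every library labelled L-DL KD lay above every control library, and for 0 genes the reverse held, against 23.8% and 23.4% of all genes. The changes were small: among the 52 genes called they ran from 1.19-fold for Rpl15 to 1.66-fold for Rpl41, and 3 of them, Rpl41, Rps2 and Rpl13a, exceeded 1.5-fold. Rpl13a rests on 56 to 123 gene counts per library, and its junction reads, given below, gave a log2 fold change of 0.25 that did not pass the test (adjusted p = 0.0963).

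**Figure D1:**
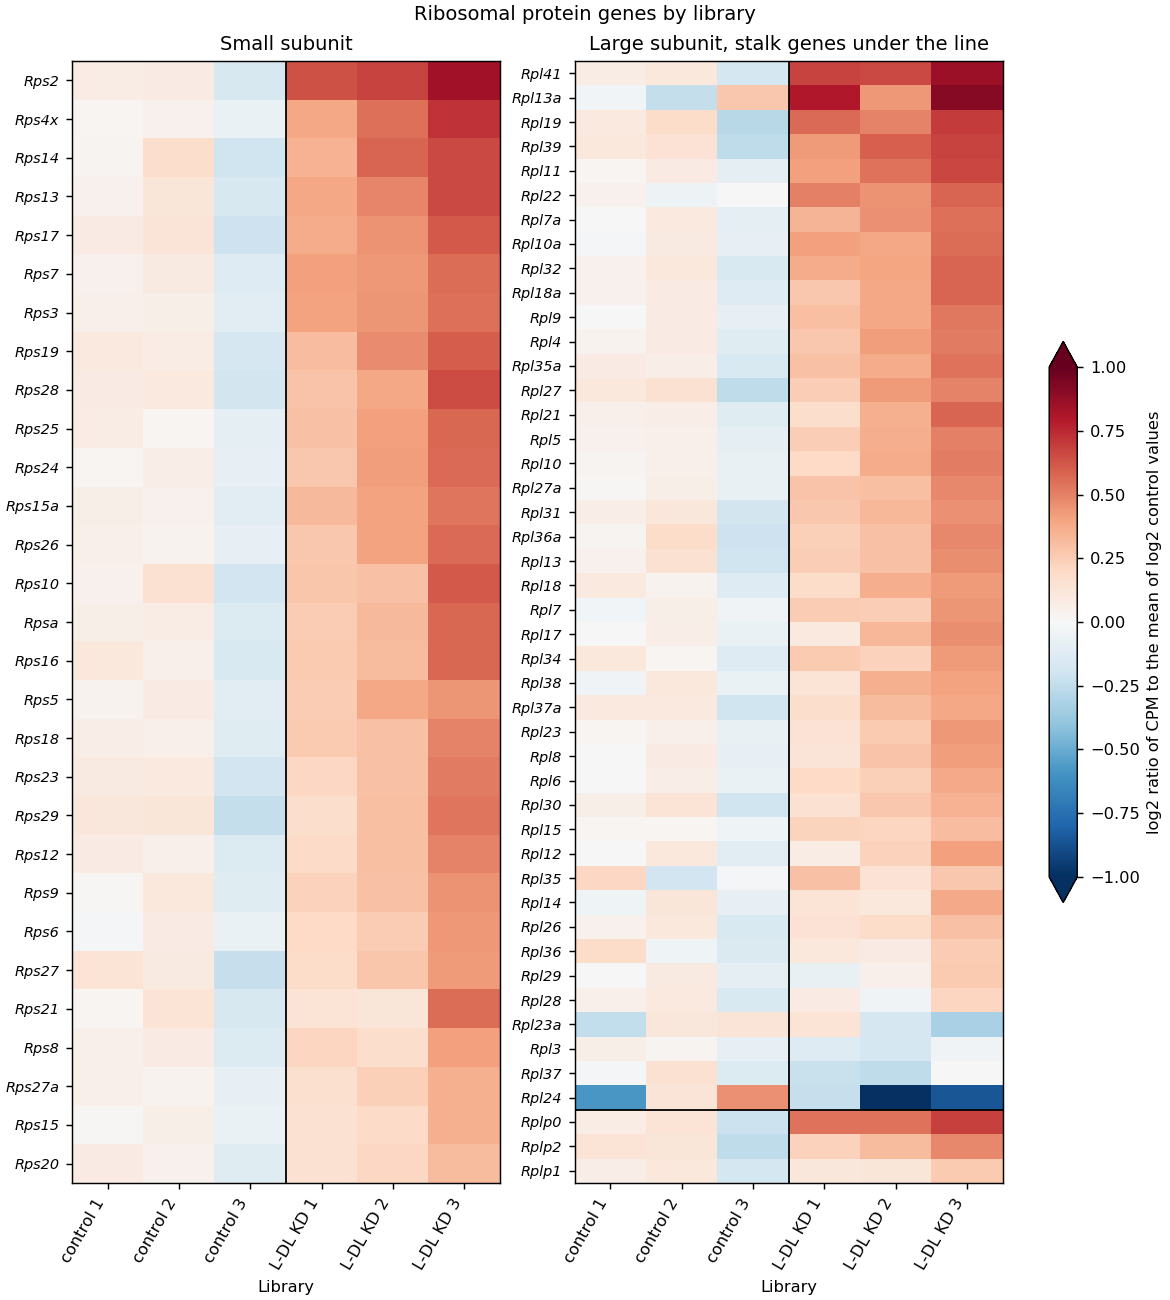
Level of each of 75 of the 76 genes (rows) in each of the 6 libraries (columns), as the log2 ratio of its CPM to the mean log2 value of the controls, with colours limited to ±1 and genes ordered by fold change within the small subunit, the large subunit and the stalk. L-DL KD replicate 3 is the reddest column and control replicate 3 the bluest, and Rpl24, whose colour reaches the end of the scale, had 2 to 14 counts.

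The libraries of 1 group also differed among themselves. L-DL KD replicate 3 held the highest level of 71 genes and control replicate 3 the lowest level of 69. By replicate number, the 76 genes together took 1.10%, 1.15% and 0.981% of the gene counts of the controls, against 1.32%, 1.37% and 1.55% of those labelled L-DL KD. The groups did not overlap, and the means were 1.08% ± 0.0874 (SD) and 1.42% ± 0.122 (SD). The number of genes called higher changed when 1 library was left out. It fell from 52 to 32 without control replicate 1, 25 without control replicate 3 and 33 without L-DL KD replicate 3. In each of these fits 0 were lower, and the median log2 fold changes were 0.38, 0.27 and 0.27. Calls of higher genes over all genes tested fell as well, from 2743 to 1848, 1770 and 2199 in that order. Without control replicate 2 and L-DL KD replicate 2, 35 and 38 ribosomal protein genes were called higher. Without L-DL KD replicate 1, 62 of them and 3236 of all genes were called higher.

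Coordinates are those of GRCm38. The 30 genes of the small subunit all had estimates above 0, with a median log2 fold change of 0.39, and 23 passed the test. Rps2 (ENSMUSG00000044533, chr17:24718116-24721929), which lies at the mRNA entry side of the small subunit, was at 396, 398 and 336 CPM in the controls and at 582, 600.5 and 671 CPM in the libraries labelled L-DL KD. These values lay well apart, and the mean rose 1.64-fold (log2 0.71, SE 0.09, adjusted p = 0.00119). Rps14 rose from 210.0, 234 and 179.5 CPM to 262, 309 and 327 CPM (log2 0.53, SE 0.12, adjusted p = 0.0116). Rps24, which has alternative exons at its 3′ end, went from 210.2, 218 and 196 CPM to 251, 277 and 308 CPM (log2 0.42, SE 0.09, adjusted p = 0.00907). Each of these genes was higher in every library labelled L-DL KD than in any control.

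Rpsa, which also has a separate life as a laminin receptor at the cell surface, was at 387, 392 and 339 CPM against 443, 465 and 553 CPM (log2 0.39, SE 0.10, adjusted p = 0.0227). Rps18, a common reference gene in RT-qPCR, was at 117, 116 and 103 CPM against 134, 137 and 158 CPM (log2 0.35, SE 0.09, adjusted p = 0.0192). Rps6, the substrate of the S6 kinases, was at 278, 297 and 267 CPM against 322, 335 and 379 CPM (log2 0.30, SE 0.08, adjusted p = 0.0267). The groups did not overlap for any of these genes, and L-DL KD replicate 3 was the highest library of each. Rps27a, which is made as a fusion with ubiquitin, showed the smallest called rise of the small subunit, from 117, 116 and 106 CPM to 126, 133 and 145 CPM (log2 0.25, SE 0.08, adjusted p = 0.0374). Rps15 was at 212, 219.6 and 201 CPM against 234, 240.4 and 269.8 CPM and did not pass the test (log2 0.23, SE 0.08, adjusted p = 0.0513). The calls of Rpsa, Rps18, Rps6 and Rps27a were each lost in at least 1 alternative fit, as given below.

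Of the 43 genes of the large subunit outside the stalk, 28 rose, 0 fell and 15 did not pass the test, with a median log2 fold change of 0.32. Rpl41 (ENSMUSG00000093674, chr10:128548114-128549305), which encodes a very short and basic protein, was at 169, 172 and 142 CPM in the controls and 257, 253 and 290.1 CPM in those labelled L-DL KD, the largest estimate of the 76 genes (log2 0.73, SE 0.10, adjusted p = 0.00124). Rpl19 rose from 44.7, 47.5 and 34.5 CPM to 61.9, 58.9 and 68.0 CPM (log2 0.57, SE 0.12, adjusted p = 0.0100). Rpl39, whose protein lines the exit tunnel for the nascent chain, rose from 36.1, 37.0 and 28.1 CPM to 44.9, 50.6 and 53.7 CPM (log2 0.56, SE 0.12, adjusted p = 0.0110). In all of these the groups were apart, and control replicate 3 was the lowest library.

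Rpl22, an RNA-binding protein of the large subunit, was at 100.1, 94.0 and 97.5 CPM in the controls and reached 138, 132 and 146 CPM (log2 0.51, SE 0.07, adjusted p = 0.00122). Rpl10a rose from 135, 146 and 129.6 CPM to 182, 179 and 201 CPM (log2 0.45, SE 0.08, adjusted p = 0.00374). Rpl12, which sits at the base of the stalk, was at 167, 179.5 and 154 CPM against 175, 196 and 221 CPM (log2 0.24, SE 0.10, adjusted p = 0.103). Its groups overlapped, since L-DL KD replicate 1 lay below control replicate 2.

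Rpl3 (ENSMUSG00000060036, chr15:80077791-80091868), which helps to shape the peptidyl transferase centre, was the only gene of the 5 with the highest control levels per kilobase whose estimate was below 0. It was at 508, 498 and 462 CPM in the controls and 448, 432 and 478 CPM in the libraries labelled L-DL KD, so the groups overlapped, and it did not pass the test (log2 -0.11, SE 0.07, adjusted p = 0.276). The other 3 genes with an estimate below 0 were named after their values were seen, and none of them passed the test. Rpl37 was at 76.8, 86.2 and 70.7 CPM against 66.6, 65.2 and 77.6 CPM (log2 -0.16, SE 0.10, adjusted p = 0.272), Rpl23a stood between 2.92 and 4.02 CPM in all libraries (log2 -0.11, SE 0.23, adjusted p = 0.749), and Rpl24 had 2 to 14 counts (log2 -0.97, SE 0.59, adjusted p = 0.255). A difference from the other members was not tested for any of the 4.

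The stalk genes encode the acidic proteins that recruit elongation factors to the large subunit. Rplp0 (ENSMUSG00000067274, chr5:115559467-115563727), which anchors the other two, rose from 351, 366 and 288 CPM to 485, 485 and 535 CPM (log2 0.58, SE 0.10, adjusted p = 0.00395). Rplp1 was at 287, 295 and 242 CPM against 295, 297 and 328 CPM, and its rise did not pass the test (log2 0.16, SE 0.09, adjusted p = 0.222). Rplp2 was at 88.0, 86.9 and 66.9 CPM against 94.1, 99.6 and 111 CPM (log2 0.33, SE 0.12, adjusted p = 0.0644). All 3 genes lay higher in every library labelled L-DL KD than in any control, Rplp1 by a very small margin, and whether their changes differed from each other was not tested.

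**Figure D2:**
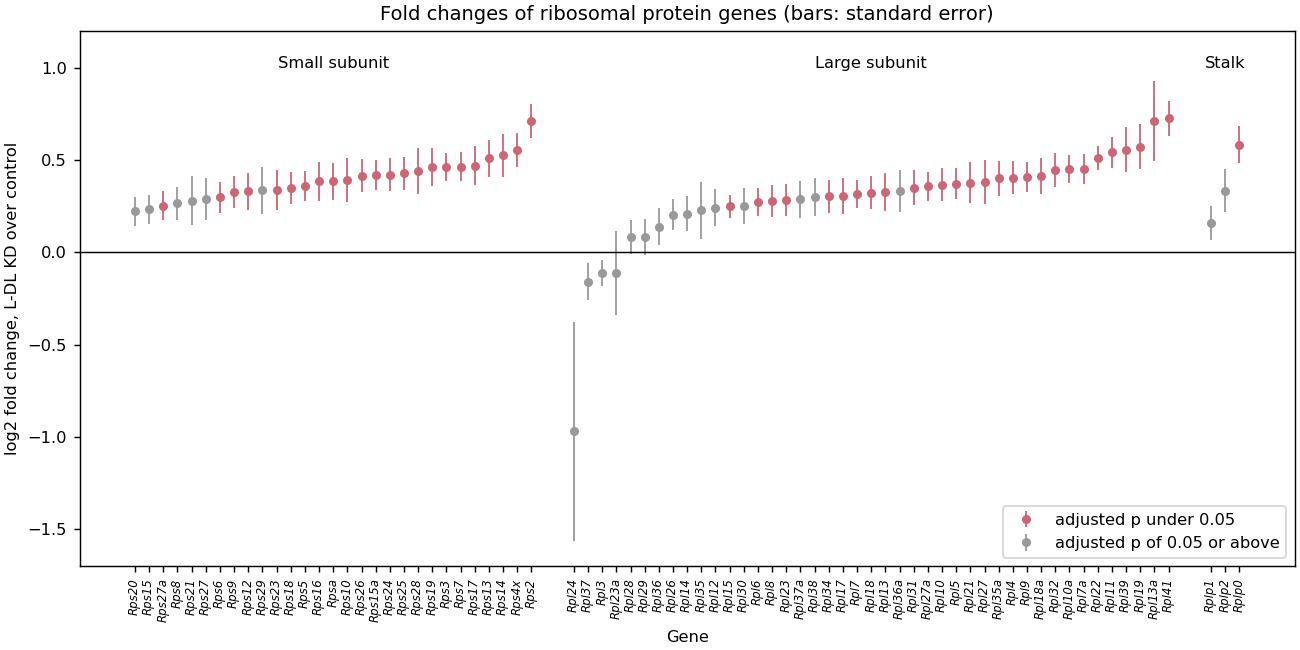
log2 fold change of each of 75 of the 76 genes in the libraries labelled L-DL KD over the controls, with its standard error, by subunit and in rising order. Red points have an adjusted p under 0.05, all 52 of them above 0, and grey points, 23 genes, do not.

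Per kilobase of the principal transcript, the control level of the 76 genes by gene counts had a median of 162 CPM per kb. In 12 genes the gene counts were below the junction reads of a single splicing event, given below, so their levels here may be too low. The levels spanned from 0.996 CPM per kb for Rpl24 to 551 ± 56.8 CPM per kb (SD) for Rplp1. Rplp1 was followed by Rps24 at 445 ± 24.0, Rps15 at 422 ± 18.6, Rpl3 at 362 ± 17.9 and Rps14 at 348 ± 45.6 CPM per kb (SD). Rps24 and Rps15 did not differ beyond their spread, and neither did Rpl3 and Rps14. Across the 76 genes the fold change was hardly related to this level (Spearman's rho 0.144) or to transcript length (rho 0.0456), where genes share libraries and are not independent.

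The summed level of the small subunit genes was 4084 to 4713 CPM in the controls and 5509 to 6564 CPM in the libraries labelled L-DL KD, and that of the large subunit genes 5895 to 6780 CPM and 7520 to 8705 CPM. Both sums therefore lay apart between the groups. The ratio of the small to the large subunit sum was 0.703, 0.695 and 0.693 in the controls and 0.733, 0.741 and 0.754 in the libraries labelled L-DL KD. Without Rps2, the gene with the largest estimate of the small subunit, it was 0.636 to 0.642 and 0.655 to 0.677. The ratio is a description of these libraries, without a test.

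Processed copies of these genes are frequent in the genome, and reads of near-identical copies can be shared between them. The 298 genes annotated as ribosomal protein pseudogenes held 5475 to 6670 counts in the controls and 7705 to 8090 in the libraries labelled L-DL KD, against 157411 to 195663 and 236883 to 256638 on the 76 genes. With the pseudogenes included, the share of gene counts was 1.11% ± 0.0901 and 1.46% ± 0.125 (SD).

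The 4 genes Rpl13a, Rpl23a, Rpl24 and Rpl35 were each counted at under 10 CPM in every library. In 11 of the 76 genes over 20% of the exon bases overlapped exons of another gene, and these 4 were among them. Rpl13a, another reference gene of RT-qPCR, had 62, 56 and 74 counts in the controls and 123, 94 and 123 in the libraries labelled L-DL KD, or 3.81, 3.29 and 4.69 CPM against 6.77, 5.26 and 7.32 CPM (log2 0.71, SE 0.22, adjusted p = 0.0379). It shares 35.4% of its exon bases with other genes, most of them with Gm45713 on the same strand, to which 0 counts were assigned. Rpl24 shares 47.0%, all with Gm28037, also at 0 counts, Rpl35 shares 66.2%, all with Wdr38 on the opposite strand, and Rpl23a 62.3%, most with Tlcd1 on the opposite strand. Whether the counting used strand is not given in the sources used here, and the part of the overlap in these low counts was not tested. Without the 11 overlapped genes 46 of 65 were called higher, with a median log2 fold change of 0.34.

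Reads across splice junctions in the splicing table gave a second count for 55 of the genes, taken from the best covered event of each. This count was used after the low gene counts had been seen. Rpl13a, with at most 123 gene counts, had 4991, 5769 and 4392 junction reads in the controls and 6370, 6667 and 6517 in the libraries labelled L-DL KD, and its log2 fold change there was 0.25 (SE 0.10, adjusted p = 0.0963). Rpl23a, whose gene counts gave an estimate below 0, had 2305 to 2739 junction reads in the controls and 3017 to 3404 in the libraries labelled L-DL KD (log2 0.20, SE 0.10, adjusted p = 0.157). For neither gene did the junction reads pass the test. By junction reads 30 of the 55 genes (54.5%) were higher and 0 lower, against 10.6% and 10.4% of 9652 genes, and the median log2 fold change was 0.32 against 0.01. All 30 were also called by gene counts, which called 40 of the 55. Rpl41 had a log2 fold change of 0.73 and Rpl3 one of -0.16 (SE 0.10, adjusted p = 0.281) by junction reads. In 12 of the 55 genes the junction reads outnumbered the gene counts. Among them Rpl19 had 3754, 4171 and 3106 junction reads in the controls against 727, 808 and 545 gene counts. Its log2 fold change by junction reads was 0.51 (SE 0.11, adjusted p = 0.00339).

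**Figure D3:**
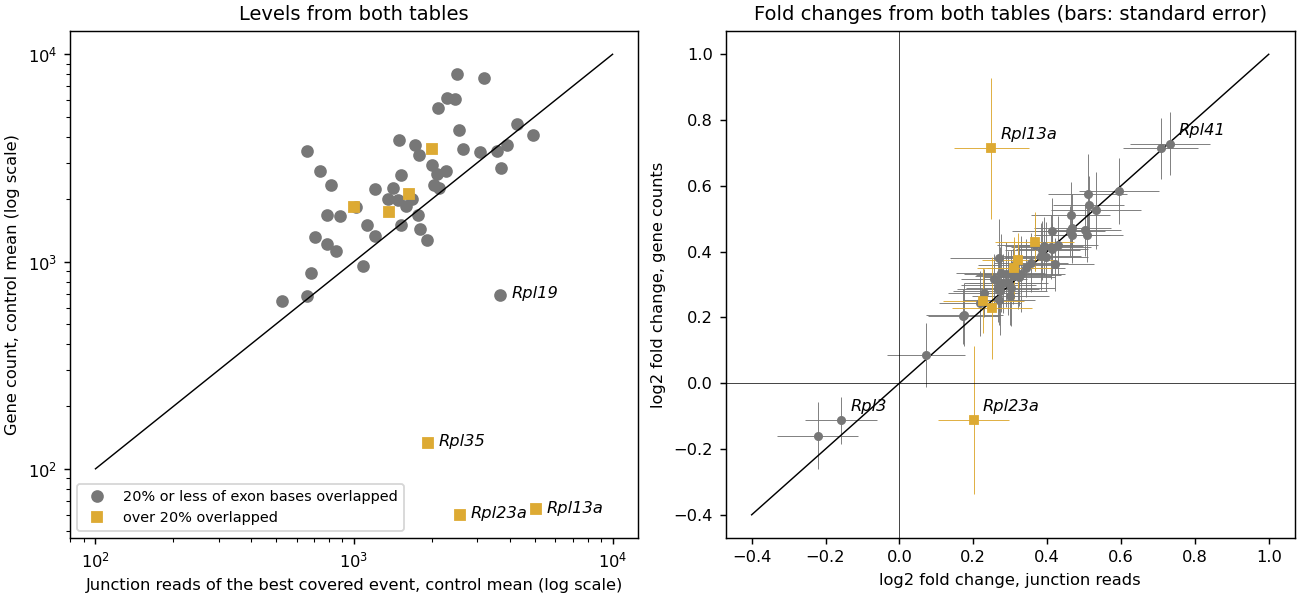
Left, mean gene count of the controls against mean junction reads of the best covered event for 55 genes, both on log scales, with squares for genes with over 20% of their exon bases overlapped and the line of equal counts. Right, log2 fold changes from both tables with standard errors: most genes lie along the line of equal change, while Rpl13a (0.71 and 0.25) and Rpl23a (-0.11 and 0.20) do not.

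Other genes of the translation pathway were taken as lists. Of 18 elongation factors and other mRNAs with a known 5′ pyrimidine run, 10 rose and 0 fell, with a median log2 fold change of 0.37. Among them Eef1a1, the elongation factor that brings aminoacyl-tRNA to the ribosome, rose from 2791, 2860.3 and 2617 CPM to 3698, 3852 and 4132 CPM (log2 0.50, SE 0.08, adjusted p = 0.00250). Rack1, a scaffold protein of the small subunit, rose by 0.55 (SE 0.09, adjusted p = 0.00309) on the log2 scale and Vim, the intermediate filament vimentin, by 0.82 (SE 0.09, adjusted p = 0.000583). The other 8 genes did not pass the test, 15.6% of all genes were called higher, and Vim is a member that is no translation factor.

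The background over all genes was 15.6% called higher and 15% called lower. Of 28 initiation factors 11 rose and 2 fell (median 0.19). Eif3d, a subunit of eIF3, rose by 0.51 (SE 0.13, adjusted p = 0.0196) and Eif2s2, a subunit of eIF2, by 0.44 (SE 0.10, adjusted p = 0.0148) on the log2 scale. The helicase Eif4a2 fell from 601, 614 and 621 CPM to 475, 443 and 421 CPM (log2 -0.46, SE 0.07, adjusted p = 0.00234). Of 22 genes of the mTORC1 pathway 5 rose and 2 fell (median -0.03), among them Eif4ebp1, an inhibitor of cap-dependent initiation, which went from 8.25, 6.05 and 5.33 CPM to 11.8, 16.5 and 17.6 CPM (log2 1.22, SE 0.22, adjusted p = 0.00457). Of 38 ribosome biogenesis and RNA polymerase I genes tested 6 rose and 1 fell (median 0.12), a share of rises near that of all genes. The gene that fell was Rrn3, the initiation factor of RNA polymerase I, from 59.6, 65.8 and 67.3 CPM to 32.6, 30.1 and 31.9 CPM (log2 -1.03, SE 0.08, adjusted p = 0.000186).

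The calls in the remaining lists did not clearly exceed the 15.6% of all genes called higher and the 15% called lower. Of 11 snoRNA host genes tested 2 rose and 0 fell (median 0.18), with Gas5 at log2 0.44 (SE 0.10, adjusted p = 0.0136). Of 17 genes of nonsense-mediated decay, the pathway that degrades mRNAs with early stop codons, 3 rose and 1 fell (median -0.01), and of 12 genes of ribosome rescue tested 2 rose and 2 fell (median -0.03). Of 77 mitochondrial ribosomal protein genes tested, a list added after the data were seen, 4 rose and 4 fell (median 0.02). Among 6 ribosomal protein paralogs outside the rule that were tested, 1 rose, Rps27l, a p53-responsive paralog of Rps27, from 15.4, 16.1 and 13.2 CPM to 28.3, 30.8 and 36.6 CPM (log2 1.10, SE 0.14, adjusted p = 0.000970). Rps27 itself did not pass the test (log2 0.29, SE 0.12, adjusted p = 0.0940).

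Markers of microglia and of neurons also differed between the groups, in opposite directions. All 12 microglia markers rose (median log2 fold change 1.01), and their summed level was 1475 to 1838 CPM in the controls and 3054 to 4024 CPM in the libraries labelled L-DL KD. Of 13 neuron markers 11 fell and 1 rose (median -0.56), with sums of 9910 to 10476 CPM and 5993 to 7006 CPM. L-DL KD replicate 3, highest in ribosomal protein counts, was also highest in the microglia sum and lowest in the neuron sum. Control replicate 3, lowest in ribosomal protein counts, had the lowest microglia sum. Its neuron sum, 10153 CPM, lay between those of the other controls. None of the markers in these lists was at 0 in all libraries. Their part in the rise of the ribosomal protein genes was not tested, and in whole tissue a change in the number of cells of a type and a change of RNA per cell cannot be told apart.

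Of 10 astrocyte markers 2 rose and 4 fell (median log2 fold change -0.20), with sums of 9654 to 9819 CPM in the controls and 7504 to 9166 CPM in the libraries labelled L-DL KD. Of 10 oligodendrocyte markers 3 rose and 1 fell (median 0.23, 8275 to 8858 CPM against 7083 to 10408 CPM), and of 10 endothelial markers 4 rose and 0 fell (median 0.42, 336 to 365 CPM against 414 to 502 CPM). Of 10 B and plasma cell markers 1 rose (median 0.35), with sums of 311 to 1642 CPM and 913 to 2453 CPM, and of 12 interferon response genes 7 rose and 0 fell (median 0.92), with sums of 539 to 740 CPM and 732 to 1113 CPM. Choroid plexus markers passed the test in 0 of 8 genes and differed widely within both groups (median -0.37, 445 to 4667 CPM against 33.7 to 5224 CPM). Over all genes 15.6% were called higher and 15% lower, so that 1 or 2 calls among 10 markers lie near that background. The part of these lists in the results was not tested either.

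**Figure D4:**
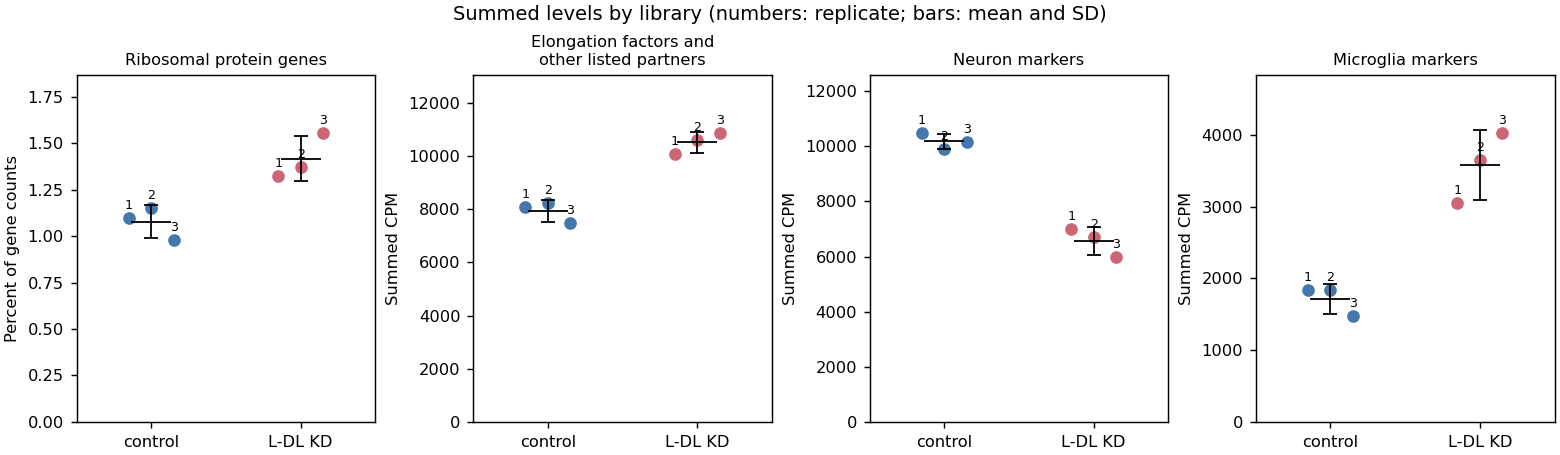
Share of gene counts on the 76 ribosomal protein genes and summed CPM of the translation partners, neuron markers and microglia markers in each library, with replicate numbers and the mean and SD of each group. The groups lie apart in all 4 panels, with neuron markers lower and the others higher in the libraries labelled L-DL KD.

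A pyrimidine run was looked for at the annotated start in RefSeq promoter sequences (GRCm38.p6), which held 56 of the 76 genes. At any annotated start, 13 of them (23.2%) began with C followed by at least 4 bases that were each C or T, read on the strand of the gene only, against 3.01% of 27025 genes with a promoter sequence. From 10 bases before to the 15th base from the start, 34 genes (60.7%) held such a run, against 34.4% of all genes. The windows of 3 of these genes, the ones named for their role, show it, with 10 bases before the start in lower case, the run in capitals from the start on, and 30 bases in all. Rps6 lies on the minus strand (chr4:86857348-86857377), Rps18 on the minus strand (chr17:33955646-33955675) and Rplp2 on the plus strand (chr7:141447641-141447670).
Rps6: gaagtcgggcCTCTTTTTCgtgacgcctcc
Rps18: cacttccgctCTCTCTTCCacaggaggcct
Rplp2: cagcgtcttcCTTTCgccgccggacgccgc
Of the 13 genes with the run at the start 6 were higher (median log2 fold change 0.30), and of the 43 genes with a promoter sequence but no such run at the start 36 were higher (median 0.39). The match describes letters at an annotated start, which can differ from the start used in this tissue.

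Splicing was compared by PSI, the percentage of transcripts that include a segment, computed from inclusion and skipping junction reads divided by the effective length of each form. Of the 126 events of ribosomal protein genes 85, in 42 genes, had enough reads to be tested. At an adjusted p under 0.05 there were 0 of them by edgeR, against 0.255% of 18829 events tested, and the smallest adjusted p was 0.111. By limma 0 of all 18829 events passed, those of ribosomal protein genes included. At an unadjusted p under 0.05 there were 15 events (17.6%) by edgeR, against 13.3% of all events, and 10 of 85 by limma, against 12.6% of all events, which is close to the background in both. Inclusion was lower in 10 of the 15 and higher in 5, near the 62.6% with lower inclusion among all events at that level. For each event below the p-value is that of the edgeR fit to junction counts, adjusted over all events tested.

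The event with the smallest p was a retained intron of Rpl23a, whose protein lies at the exit of the nascent chain. Its PSI was 8.80%, 9.15% and 10.8% in the controls and 3.63%, 2.80% and 3.47% in the libraries labelled L-DL KD (adjusted p = 0.111), from 29 to 40 and 11 to 14 inclusion reads. The groups were apart. The intron is 156 bases long (chr11:78180998-78181153, GRCm38, minus strand), is part of the retained-intron transcript Rpl23a-203, and all 156 bases lie within exons of Tlcd1 on the opposite strand. Tlcd1 itself was at 8.12, 8.69 and 10.3 CPM in the controls and 9.13, 7.22 and 6.19 CPM in the libraries labelled L-DL KD (log2 -0.27, SE 0.19, adjusted p = 0.324), and its part in the intron reads was not tested. The intron is shown because the event had the smallest p, with 12 bases of each flanking exon and the splice site dinucleotides in capitals.
Rpl23a intron: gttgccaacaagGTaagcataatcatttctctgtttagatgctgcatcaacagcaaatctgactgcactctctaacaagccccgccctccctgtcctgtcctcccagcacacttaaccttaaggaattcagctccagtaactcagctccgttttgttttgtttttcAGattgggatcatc

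Rpl13a had an alternative 5′ splice site that lengthens an exon by 158 bases (chr7:45128542-45128699, minus strand), annotated in the noncoding transcript Rpl13a-203. Its use was 10.5%, 11.0% and 10.7% in the controls and 6.64%, 7.04% and 6.67% in the libraries labelled L-DL KD (adjusted p = 0.165). The longer form had 381 to 509 reads in the controls and 337 to 376 in the libraries labelled L-DL KD, while the shorter form had 1583 to 2061 and 2370 to 2481. The spread within each group was narrow, with SDs of 0.250 and 0.226 percentage points.

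Rpl27a, a protein of the large subunit, had a coding exon of 76 bases (chr7:109519918-109519993, plus strand) that nearly all transcripts contained. Its PSI was 99.9%, 99.7% and 100% in the controls and 99.3%, 99.3% and 99.2% in the libraries labelled L-DL KD (adjusted p = 0.141), from 2, 6 and 0 skipping reads against 16, 17 and 21. An alternative 5′ splice site of the same gene rests on the same skipping reads (adjusted p = 0.140). The exon, whose length is not a multiple of 3, is shown in capitals with 12 bases of the neighbouring exons of Rpl27a-203.
Rpl27a exon: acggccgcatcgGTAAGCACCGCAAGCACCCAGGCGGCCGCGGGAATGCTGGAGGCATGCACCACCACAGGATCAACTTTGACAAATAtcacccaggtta
The remaining events named for their p were an exon of 86 bases in Rps15a with 0 skipping reads in every control and 2, 5 and 3 in the libraries labelled L-DL KD (adjusted p = 0.243), and an intron of 81 bases in Rps2 whose PSI was 0.645% to 0.894% and 0.172% to 0.486% (adjusted p = 0.271). In both the groups were apart, at differences under 1 percentage point.

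Rpl3, Rpl10a and Rpl12 are known for splice forms that nonsense-mediated decay removes, through which their proteins can limit their own mRNA. In Rpl3 an intron of 583 bases (chr15:80081032-80081614, minus strand) was retained at 2.08%, 1.87% and 1.32% in the controls and 2.91%, 2.88% and 3.34% in the libraries labelled L-DL KD (adjusted p = 0.216). An alternative 3′ splice site in the same intron, annotated in the decay target Rpl3-205, was used at 2.35%, 2.08% and 1.26% against 2.15%, 3.05% and 3.63%, with overlapping groups (adjusted p = 0.392). The gene count of Rpl3 was not called in either direction, as given above. The other 2 tested events of Rpl3 overlapped between the groups (adjusted p = 0.718 and 0.941).

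In Rpl10a an intron of 326 bases (chr17:28329048-28329373, plus strand) was retained at 7.28%, 7.35% and 8.24% in the controls and 10.5%, 10.2% and 10.9% in the libraries labelled L-DL KD (adjusted p = 0.351). The alternative 5′ splice site within it, annotated in the decay target Rpl10a-203, was used at 5.97%, 5.84% and 6.54% against 6.98%, 7.44% and 8.04% (adjusted p = 0.606). Both were apart between the groups, and the Rpl10a gene count was higher as well. Of the other 3 events of Rpl10a, the coding exon of 81 bases had 0, 2 and 0 skipping reads against 9, 2 and 7 (adjusted p = 0.339). The remaining pair of events shares reads with these. A 314-base form of that exon had the largest PSI difference of all 85 events, -18.0 percentage points, at 100%, 87.9% and 100% in the controls and 71.9%, 90.7% and 71.4% in the libraries labelled L-DL KD (adjusted p = 0.393), with overlapping groups and the same few skipping reads. The last 93 bases of the intron were retained at 71.4%, 75.7% and 75.8% against 80.9%, 79.5% and 81.7% (adjusted p = 0.562), with the groups apart.

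In Rpl12 an exon of 87 bases (chr2:32963497-32963583, plus strand) was included at 99.5%, 99.8% and 99.0% in the controls and 99.7%, 100% and 100% in the libraries labelled L-DL KD (adjusted p = 0.328), with overlapping groups and 8 skipping reads at most. Its alternative 5′ splice site of the decay target Rpl12-201 was used at 3.27% to 4.48% and 3.40% to 4.58% (adjusted p = 0.990). The third event of Rpl12, an intron that holds the snoRNA Snora65, also overlapped (adjusted p = 0.456).

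Rps24 carries short alternative exons near its stop codon, so that the forms differ at the end of the protein. Both are on the plus strand of chromosome 14, an 18-base exon (chr14:24494052-24494069) and a 20-base exon (chr14:24495430-24495449), and both are found in the coding transcript Rps24-205. They are shown in capitals between 12 bases of the neighbouring exons of that transcript, because they are the known alternative exons of this gene.
Rps24 18-base exon: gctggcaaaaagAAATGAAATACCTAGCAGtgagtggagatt
Rps24 20-base exon: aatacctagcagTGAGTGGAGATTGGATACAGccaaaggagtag
The 18-base exon was included at 11.5%, 12.3% and 10.9% in the controls and 9.86%, 9.01% and 14.3% in the libraries labelled L-DL KD (adjusted p = 0.934). For the 20-base exon PSI was 71.9%, 69.7% and 76.1% against 69.2%, 70.4% and 65.4% (adjusted p = 0.671). The groups overlapped for both exons, while the gene count of Rps24 was higher. The difference in PSI was -0.526 percentage points for the first and -4.23 percentage points for the second.

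**Figure D5:**
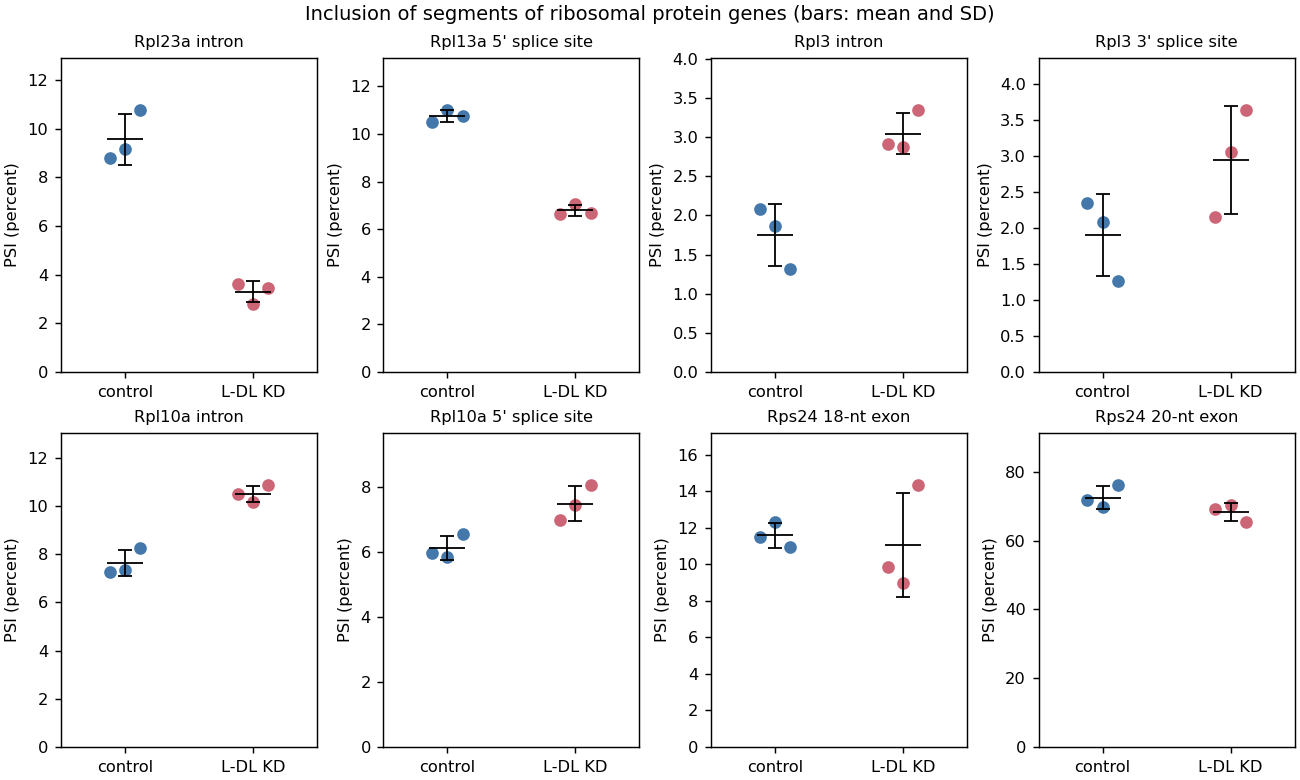
PSI in percent of 8 segments of Rpl23a, Rpl13a, Rpl3, Rpl10a and Rps24 in each library (blue, control; red, libraries labelled L-DL KD), with the mean and SD of each group on axes that start at 0. The groups lie apart for Rpl23a, Rpl13a, both Rpl10a segments and the Rpl3 intron, and overlap for the Rpl3 3′ splice site and both Rps24 exons.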

How the data were processed

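Hippocampal RNA was enriched with oligo(dT) beads and sequenced as read pairs by the authors, with 3 libraries in each group. Whether each library came from a single mouse is not stated in the sources used here. The authors deposited raw counts per gene and the inclusion and skipping junction counts of rMATS with effective lengths. The submitters' processing notes name HISAT2 2.1.0, Bowtie 1.1.2, HTSeq 0.6.1 and mm10. The authors' p-values, FDR and PSI differences were not used, nor were the 2 columns of deposited PSI per library.

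Genes that reached 10 counts in 3 or more libraries were tested with edgeR 4.0.16 (R 4.3.3) after TMM scaling, without a replicate block. Events averaging 20 counts or more, with 1 or more of each form, were tested on 12 columns with an effect for each library. Symbols came from GENCODE (52403 of 52550 identifiers). In the splicing table the order of libraries carries no labels, so columns were tied to groups only. Alternatives were DESeq2 1.42.0, limma 3.58.1 (pseudocount 0.5), other scalings and filters, a replicate block, junction reads and leaving out each library. Both fits were tested on simulated data. Replicates are labelled only as such, so that p-values measure the spread between these libraries.

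Named members were the 6 largest rises and falls past the threshold (0 fell), 13 genes chosen for their role and the 5 with the highest counts per length. Named events were all tested events of Rps24, Rpl3, Rpl10a and Rpl12 and the 6 with the smallest p elsewhere. Members and lists were chosen with earlier results of these data known. The gene drawn in neither gene-level plot is included in all counts and is not reported here by name.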

Additional observations from a re-analysis of the deposited data

How the results depend on the processing

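Of the 14 named genes with an adjusted p under 0.05, 9 kept it in every alternative that gave them a value (Rpl41, Rps2, Rplp0, Rpl19, Rpl39, Rpl22, Rps24, Rpl10a and Rps14, with no junction value for Rpl39 and Rpl22), and Rpl13a, Rps18, Rps6, Rpsa and Rps27a lost it in at least 1. With the replicate number as a block 33 ribosomal protein genes were called, all higher. Same-numbered libraries did not deviate together (correlations 0.0535, 0.127 and -0.107), so the numbers were not taken to pair the samples, and the splicing table carries no numbers. By junction reads, an alternative chosen after seeing the data, 30 of 55 genes were called. Other scalings, filters and DESeq2 called 53 to 57 genes, and 0 were lower in each. With 1 library left out, 25 (without control replicate 3) to 62 (without L-DL KD replicate 1) genes were called and the median log2 fold change was 0.27 to 0.40. Among events 0 passed the adjusted threshold in each of these fits, and 11 to 16 had an unadjusted p under 0.05. Leaving out single libraries turned the direction of 3 events that were not called. The PSI difference ranged from -0.114 to 0.0477 percentage points for the Rpl3 intron of 515 bases, from -0.278 to 0.328 for the Rpl12 5′ splice site and from -2.16 to 0.503 for the 18-base exon of Rps24. The cause was not tested. Low counts limit the estimates for Rpl24, with 2 to 14 counts, and for events with few skipping reads.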

Other observations

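Rps3a1, which encodes a protein of the small subunit but carries a symbol outside the naming rule, was looked up after the other values had been seen. It was at 301, 321 and 293 CPM in the controls and 261, 265 and 302 CPM in the libraries labelled L-DL KD (log2 -0.14, SE 0.08, adjusted p = 0.207, edgeR quasi-likelihood test). Its groups overlapped, and it did not pass the test. Rpl22l1, the paralog of Rpl22, was at 5.85, 6.52 and 5.83 CPM against 5.28, 5.15 and 5.59 CPM (log2 -0.18, SE 0.16, adjusted p = 0.421). Its groups were apart with the controls higher, while Rpl22 lay higher in every library labelled L-DL KD. Eef2, which moves the ribosome along the mRNA, was at 1560, 1585 and 1432 CPM against 1882, 2069 and 2068 CPM (log2 0.40, SE 0.08, adjusted p = 0.00697). Tpt1, a protein whose mRNA has the same kind of 5′ end as the ribosomal protein mRNAs, was at 454, 469 and 412 CPM against 604, 623 and 627 CPM (log2 0.48, SE 0.07, adjusted p = 0.00229).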
